A study of Mus musculus with 6 samples.

Results

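The genes described here are Nfe2l2, which encodes the transcription factor NRF2, its inhibitor Keap1, and the antioxidant and detoxifying enzymes that the pathway is known for. They were chosen by function, as 38 gene symbols, and the rows of the array were found by symbol. Of the 38, 34 have a row of values, out of 19505 named genes in all, and each of the 34 is read by 1 row. Prdx5, Prdx6, G6pdx and Tkt are not analysed here. The livers came from male C57BL/6 mice aged 8 weeks, 3 wild type (WT) and 3 with Hmgb2 knocked out (HMGB2-KO), and each was read on 1 Clariom S mouse array. The labels name no treatment, no deleted exon and no Cre line, so the sources used here do not say whether other tissues also lack the gene. The animals' own numbers are 38, 40 and 31 (WT replicates 1 to 3) and 39, 41 and 32 (the HMGB2-KO livers in the same order). The study concerns HMGB2, a DNA-bending chromatin protein, in liver regeneration, and the arrays served to look for genes linked to it.

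NRF2 is made continuously and, in unstressed cells, is held by KEAP1, which hands it to a CUL3 ubiquitin ligase for destruction. Oxidants and electrophiles modify cysteines of KEAP1, after which NRF2 escapes, pairs with a small MAF protein and binds antioxidant response elements. Its targets make and recycle glutathione and thioredoxin, supply NADPH, and reduce quinones and other reactive carbonyls. The liver, which handles food-borne and endogenous electrophiles, carries much of this chemistry.

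Every value below is a log2 difference from a baseline of the gene's own row, with the median of the array set to 0 (centring). What the baseline was, the sources used here do not say, so livers can be compared for 1 gene, but no gene's level can be set against another's and no gene can be called expressed or silent. For the same reason the labelled tissue could not be checked by level, although all 10 hepatocyte markers had a row. Hmgb2 was at 0.47, 0.37 and 0.42 in the WT livers and at -0.66, -0.33 and -0.43 in the HMGB2-KO livers, so each liver lay on the side of its label (log2 fold change -0.89, SE 0.13, limma adjusted p = 0.645). WT replicate 2 differed from the rest in scale. As deposited, the median of its rows was 0.26 where the other arrays had -0.05 to 0.01, while the median of the 34 genes was -0.016 on it and -0.19 to -0.0092 elsewhere. Centring therefore put these genes lower on that array than elsewhere, with a median of -0.27 against -0.15 to 0.0017. The 10 hepatocyte markers did likewise, with a centred median of -0.17 there and 0.03 to 0.05 in the other livers. Where leaving out WT replicate 2 turned the sign of any of the 34 genes, the value without it is given too. For genes whose sign held it is given for some, not for all that moved.

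**Figure D1:**
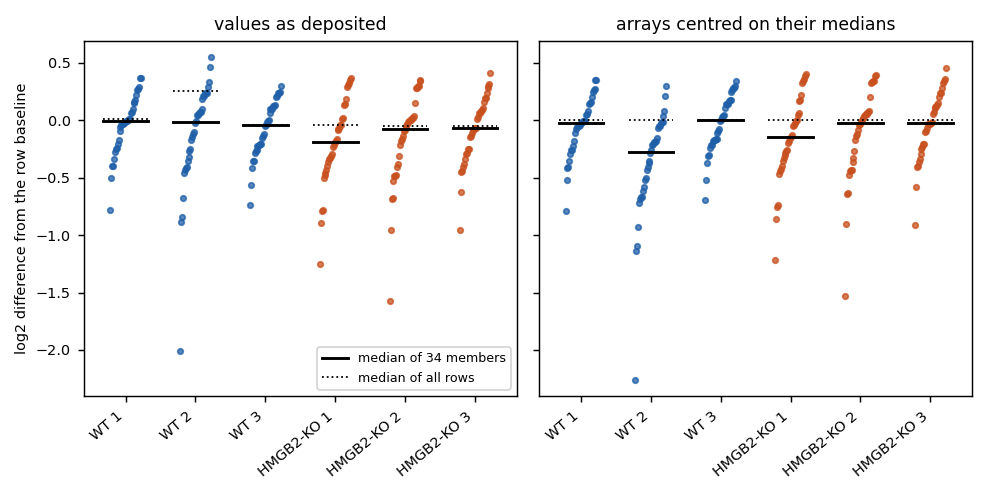
The 34 genes in each liver as deposited (left) and after centring (right), in log2 difference from the row baseline, with 1 point per gene in rising order, a solid line at the genes' median and a dotted line at the median of all rows. On the array of WT replicate 2 the dotted line sits at 0.26 as deposited, so that after centring the genes' median there is -0.27, the lowest of the 6 livers.

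No gene of the antioxidant programme passed the test between genotypes. In limma, with Benjamini-Hochberg adjustment over all 19505 genes, 0 of the 34 had an adjusted p under 0.05, as had 0% of all genes. The smallest adjusted p among the 34 was 0.994. At an unadjusted p under 0.05, 2 of the 34 were lower in HMGB2-KO and 0 were higher. The same holds for 2.61% of all genes on the lower side, 1.06% on the higher side and 3.68% in all. A count of 2 genes of 34, both on the lower side, is too small to be told from these shares. None of the 34 differed by 1.5-fold, as 2.82% of all genes did. The median log2 fold change of the 34 was 0.08, with 21 above 0 (49.5% of all genes were above 0), and the median of all genes was -0.0019. Without WT replicate 2 the median of the 34 was -0.02 with 15 above 0, and with the values as deposited it was -0.04 with 13 above 0, where the median of all genes was -0.12.

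**Figure D2:**
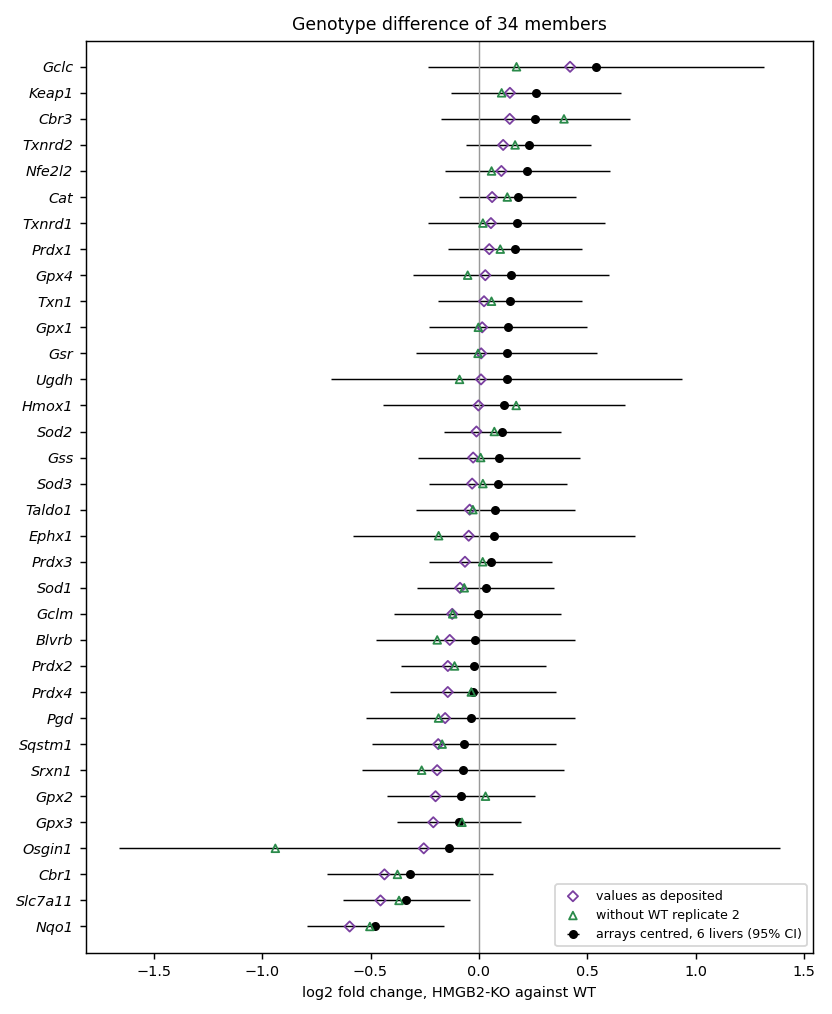
Log2 fold change of each of the 34 genes, HMGB2-KO against WT, with its 95% confidence interval from limma (black, 6 livers), the value with the arrays as deposited (diamonds) and the value without WT replicate 2 (triangles). Only the intervals of Nqo1 and Slc7a11 leave out 0, and of the 21 genes above 0 all but Cbr3 and Hmox1 have both alternatives at lower values.

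After centring, the genotypes did not overlap for 4 of the 34 genes. Nqo1 and Slc7a11 were lower in every HMGB2-KO liver than in every WT liver, which 5.35% of all genes were. Txnrd2 and Cat were higher in every HMGB2-KO liver, as were 4.32% of all genes. Both counts are near the background. With the values as deposited Nqo1 and Slc7a11 were still lower in every HMGB2-KO liver, whereas the genotypes overlapped for Txnrd2 and Cat. Txnrd2 was then at 0.24 in WT replicate 2 and at 0.20 in HMGB2-KO replicate 3. Cat was at 0.34 in WT replicate 2 and at 0.30 to 0.33 in the HMGB2-KO livers. Without WT replicate 2 the genotypes did not overlap for 8 of the 34. Lower there were Nqo1, Slc7a11, Osgin1, Srxn1 and Cbr1, 14.7% of the 34 against 9.62% of all genes. Higher were Txnrd2, Cat and Cbr3, 8.82% against 8.3%. For each of the 4 genes apart in all 6 livers after centring, the exact two-sided permutation p over the livers was 0.1, the smallest that 3 against 3 allow.

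**Figure D3:**
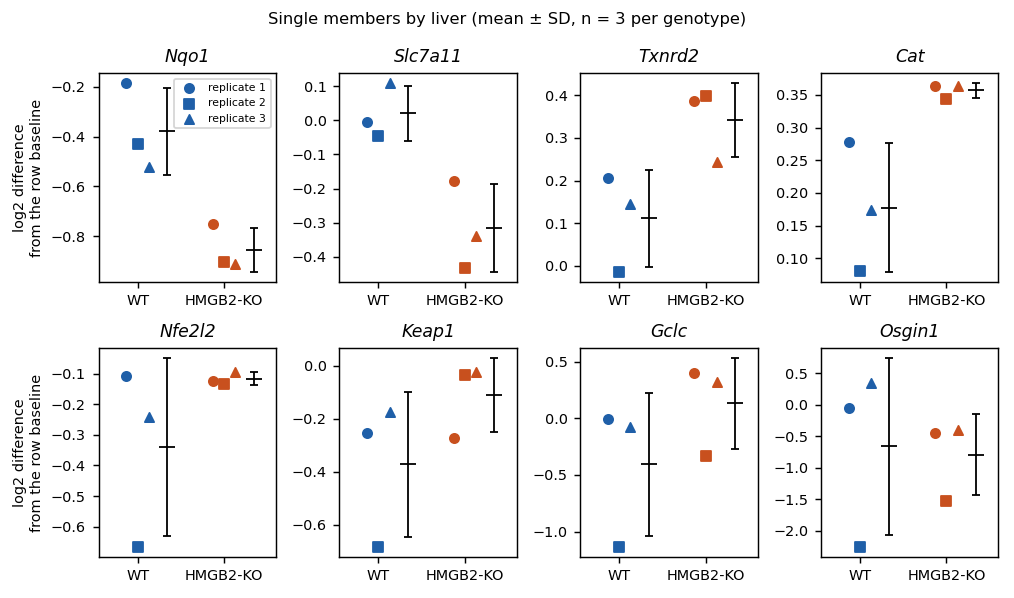
Values of 8 genes by liver, in log2 difference from the row baseline on a scale of its own in each panel, with the replicate number given by the symbol and the mean ± SD of 3 livers beside each genotype. After centring, Nqo1 and Slc7a11 lie lower and Txnrd2 and Cat higher in all HMGB2-KO livers, whereas Nfe2l2, Keap1, Gclc and Osgin1 overlap and have their lowest value in WT replicate 2. With the values as deposited, not drawn here, Txnrd2 and Cat overlap too.

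The regulators come first. Nfe2l2 was at -0.11, -0.67 and -0.24 in WT replicates 1 to 3 and at -0.12, -0.13 and -0.09 in HMGB2-KO replicates 1 to 3. WT replicate 2 is the low one, and the genotypes overlap. The log2 fold change of Nfe2l2 was 0.22 (SE 0.16, limma adjusted p = 0.994), or 0.06 without WT replicate 2. Keap1, whose protein holds NRF2 back, was at -0.25, -0.68 and -0.17 in WT and at -0.27, -0.03 and -0.02 in HMGB2-KO. Here too WT replicate 2 was lowest, and HMGB2-KO replicate 1 lay among the WT livers. Keap1 had a log2 fold change of 0.26 (SE 0.17), or 0.11 without WT replicate 2. Sqstm1 encodes p62, an autophagy adaptor that competes with NRF2 for KEAP1 and is itself a target. It ranged from -0.25 in HMGB2-KO replicate 3 to 0.35 in WT replicate 1, with a log2 fold change of -0.07 (SE 0.18).

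The letters that NRF2 and its MAF partner read can be looked for in front of these genes. The core of the antioxidant response element, TGACNNNGC, was searched on both strands of RefSeq promoter windows of assembly GRCm38.p6, each from 250 bases before to 50 after a gene's start. Of the 34 genes, 30 have a window in that table, and 8 of the 30 (26.7%) hold the motif in at least 1 window, against 14.0% of the 27025 genes in the table. By window, 8 of 37 (21.6%) held it, against 12.4% of all 32851. The 8 genes are Nfe2l2, Gclm, Txnrd1, Srxn1, Prdx1, Sod1, Pgd and Ugdh. The sites of 5 of these are shown, 1 each for NRF2 itself, glutathione synthesis, the thioredoxin system, the peroxiredoxins and glucuronate supply, all before the gene's start. Each is written 5′ to 3′ on the strand that carries the motif, with the motif in capitals.
Nfe2l2, chr2:75704885-75704913, minus strand: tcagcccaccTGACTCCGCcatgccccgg
Gclm, chr3:122245413-122245441, minus strand: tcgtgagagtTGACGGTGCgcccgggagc
Txnrd1, chr10:82859104-82859132, minus strand: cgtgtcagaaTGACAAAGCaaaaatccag
Prdx1, chr4:116685456-116685484, minus strand: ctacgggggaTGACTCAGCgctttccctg
Ugdh, chr5:65435956-65435984, minus strand: gcggagcccgTGACTTAGCtggagctgat
Counted from the gene's start, the first base of the motif in the gene's direction lies at -240 in Nfe2l2, -134 in Gclm, -92 from 1 of the 3 listed starts of Txnrd1, -133 in Prdx1 and -132 in Ugdh. The match of Prdx1 alone among these contains TGACTCA, the site of AP-1 factors, which overlaps the motif. Ugdh holds another match on the other strand. The log2 fold changes of the 8 genes with the motif ran from -0.07 to 0.22 with a median of 0.08, and those of the 22 without it from -0.48 to 0.26 with a median of 0.06. Neither Nqo1 nor Slc7a11 holds these letters in its window, which says nothing of sites further away.

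Of the 5 genes of glutathione supply, 3 were above 0, or 2 without WT replicate 2. Slc7a11, the cystine carrier of the xCT exchanger, was at -0.0039, -0.05 and 0.11 in WT replicates 1 to 3 and at -0.18, -0.43 and -0.34 in HMGB2-KO replicates 1 to 3. All HMGB2-KO livers lie below all WT livers. Slc7a11 had a log2 fold change of -0.34, that is 1.26-fold lower, with an SE of 0.13 and a 95% confidence interval of -0.63 to -0.04 (limma unadjusted p = 0.0299, adjusted p = 0.994). Its unadjusted p stayed under 0.05 without WT replicate 2 or HMGB2-KO replicate 1 and was above it without any 1 of the other 4 livers, the size running from -0.41 to -0.28. Slc7a11 is also transcribed in cell types other than hepatocytes. Of the 7 cholangiocyte markers with a row, 5 were lower in HMGB2-KO, and the median log2 fold change of the 7 was -0.22. The other 2 were Krt19, at 0.15, and Krt7, at 0.0081. The list's median lay between -0.12 and 0.16 in the WT livers and between -0.12 and -0.10 in the HMGB2-KO livers. Kupffer cell and macrophage markers went the other way, as given below with Hmox1. In whole liver, fewer cells of a type and less RNA per cell cannot be told apart, and the part of any of these cell types in the Slc7a11 difference was not tested.

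Gclc, the catalytic subunit of glutamate-cysteine ligase, which sets the pace of glutathione synthesis, was at -0.0062, -1.14 and -0.08 in WT and at 0.40, -0.33 and 0.32 in HMGB2-KO. In each genotype replicate 2 was the low liver, and the genotypes overlap. The log2 fold change was 0.54 (SE 0.33, adjusted p = 0.994 in limma), or 0.17 without WT replicate 2. Gclm, the modifier subunit of the same enzyme, gave -0.02, -0.21 and 0.30 in WT and -0.15, 0.05 and 0.15 in HMGB2-KO, with the 2 genotypes spread over the same range. Its log2 fold change was -0.0046 (SE 0.17, 95% confidence interval -0.39 to 0.38), or -0.12 without WT replicate 2. Gss, which adds glycine to complete glutathione, ran from -0.36 to 0.07 over the livers, at a log2 fold change of 0.09 (SE 0.16). Gsr, which reduces oxidised glutathione, ran from -0.51 to 0.09, with a log2 fold change of 0.13 (SE 0.18), or -0.0037 without WT replicate 2.

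The thioredoxin system passes electrons from NADPH through thioredoxin reductases to thioredoxin and the peroxiredoxins. Txnrd2, the mitochondrial reductase, was at 0.21, -0.01 and 0.15 in WT and at 0.39, 0.40 and 0.24 in HMGB2-KO. The highest WT liver and the lowest HMGB2-KO liver are 0.21 and 0.24, so the groups are apart by little, and they overlap with the values as deposited. Its log2 fold change was 0.23 (SE 0.12, limma adjusted p = 0.994, unadjusted p = 0.102), and 0.17 without WT replicate 2. Txnrd1, the cytosolic reductase and a standard NRF2 target, was at -0.29, -0.72 and -0.21 in WT and at -0.40, -0.27 and -0.03 in HMGB2-KO. WT replicate 2 was again the lowest, and the log2 fold change of 0.17 (SE 0.18) became 0.02 without it. Srxn1, sulfiredoxin, which repairs over-oxidised peroxiredoxins, was at -0.35, -0.93 and -0.37 in WT and at -0.86, -0.63 and -0.40 in HMGB2-KO. Both genotypes thus hold low livers, and its log2 fold change was -0.07 (SE 0.20). Without WT replicate 2 Srxn1 was lower in each HMGB2-KO liver than in the WT livers left, at -0.26. Txn1, cytosolic thioredoxin itself, ran from -0.19 to 0.20, with a log2 fold change of 0.14 (SE 0.14).

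The enzymes that remove superoxide and peroxides include narrow genes, such as Sod2, Gpx3 and Cat, and wider ones, with a range over the livers of 0.67 for Gpx4 and 0.53 for Gpx1. Catalase, Cat, which splits hydrogen peroxide in peroxisomes, was at 0.28, 0.08 and 0.17 in WT and at 0.36, 0.34 and 0.36 in HMGB2-KO. The HMGB2-KO livers lie close together and above all WT livers after centring, but the genotypes overlap with the values as deposited. Cat had a log2 fold change of 0.18 (SE 0.12, 95% confidence interval -0.09 to 0.45, limma adjusted p = 0.994). It was 0.13 without WT replicate 2 and 0.06 with the values as deposited. The superoxide dismutases gave 0.03 for cytosolic Sod1 (SE 0.14), 0.11 for mitochondrial Sod2 (SE 0.12) and 0.09 for secreted Sod3 (SE 0.14), and each turned negative with the values as deposited. Sod1 was also below 0 without WT replicate 2, at -0.067. Among the glutathione peroxidases, selenium enzymes that use glutathione to reduce peroxides, the main hepatic form Gpx1 was at 0.13 (SE 0.16) and Gpx4, which reduces lipid hydroperoxides, at 0.15 (SE 0.20). Both values crossed 0 without WT replicate 2, to -0.0024 and -0.05. Gpx2, an epithelial form, had a log2 fold change of -0.08 (SE 0.15), which became 0.03 without WT replicate 2, and Gpx3, the secreted plasma form, one of -0.09 (SE 0.12).

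The peroxiredoxins, thiol enzymes that reduce peroxides, had 2 of 4 log2 fold changes above 0. Prdx1, the cytosolic form and a known NRF2 target, ranged from -0.52 to -0.12 over the livers with a log2 fold change of 0.17 (SE 0.13). Prdx2, abundant in red cells, was at -0.02 (SE 0.14; -0.11 without WT replicate 2), mitochondrial Prdx3 at 0.05 (SE 0.12) and Prdx4 of the endoplasmic reticulum at -0.03 (SE 0.16). For Prdx3 that sign turned with the values as deposited, and for Prdx4 with quantile normalization. Red cell markers had 4 of 10 genes with a row, all 4 lower in HMGB2-KO with a median of -0.12, and their part in the value of Prdx2 was not tested.

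Pgd and Taldo1 stand for the pentose phosphate pathway, which makes the NADPH that the reductases use. Pgd, 6-phosphogluconate dehydrogenase, ranged from -0.64 in HMGB2-KO replicate 2 to -0.0036 in WT replicate 3, and its log2 fold change was -0.04 (SE 0.21), or -0.19 without WT replicate 2. Transaldolase, Taldo1, ran from -0.40 to 0.11, at a log2 fold change of 0.08 (SE 0.16), or -0.027 without WT replicate 2. Neither separated the genotypes.

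Nqo1, the quinone reductase most often used as a readout of NRF2, had the smallest p of the 34. It was at -0.18, -0.43 and -0.52 in WT replicates 1 to 3 and at -0.75, -0.91 and -0.91 in HMGB2-KO replicates 1 to 3. The lowest WT liver thus lies above the highest HMGB2-KO liver. Its mean ± SD over 3 livers was -0.38 ± 0.17 in WT, and in HMGB2-KO it was -0.86 ± 0.09. This is a log2 fold change of -0.48, that is 1.39-fold lower, with an SE of 0.14 and a 95% confidence interval of -0.80 to -0.16. In limma the unadjusted p was 0.00866 and the adjusted p 0.994, and Nqo1 ranked 87 by p among all genes. The unadjusted p of Nqo1 stayed under 0.05 in all 13 alternatives run, with a log2 fold change from -0.60 to -0.38, and the adjusted p reached 0.05 in none of them, the lowest being 0.863.

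Of the 5 detoxifying enzymes with Nqo1 among them, 3 were above 0, or 1 without WT replicate 2. Cbr1, a carbonyl reductase, was at -0.01, -0.26 and -0.16 in WT and at -0.74, -0.44 and -0.20 in HMGB2-KO, where HMGB2-KO replicate 3 lies within the WT range but below both other WT livers when WT replicate 2 is left out. Its log2 fold change was -0.32 (SE 0.17, limma unadjusted p = 0.0931), or -0.18 without HMGB2-KO replicate 1, and its unadjusted p was 0.0364 with the values as deposited. Its neighbour in sequence and function Cbr3 had the opposite sign, with -0.41 to 0.04 in WT, -0.20 to 0.35 in HMGB2-KO and a log2 fold change of 0.26 (SE 0.19). Without WT replicate 2 Cbr3 was at 0.39, with all HMGB2-KO livers above both WT livers left. Ephx1, microsomal epoxide hydrolase, ran from -0.66 to 0.33 with a log2 fold change of 0.07 (SE 0.28), or -0.19 without WT replicate 2. Ugdh, which makes UDP-glucuronate for conjugation, ran from -1.21 in HMGB2-KO replicate 1 to -0.09 in HMGB2-KO replicate 2, so the livers of 1 genotype span the whole range. Ugdh had a log2 fold change of 0.13 (SE 0.35), or -0.089 without WT replicate 2.

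Hmox1, heme oxygenase, which opens the heme ring, was at 0.06, -0.15 and -0.69 in WT and at 0.22, -0.43 and -0.24 in HMGB2-KO. WT replicate 3 is the low liver, and the groups overlap. Its log2 fold change was 0.12 (SE 0.24), and -0.0019 with the values as deposited. Liver macrophages express Hmox1 as well as hepatocytes, and 11 of 11 Kupffer cell and macrophage markers with a row were higher in HMGB2-KO, with a median log2 fold change of 0.20. By liver that list's median was 0.26 to 0.40 in WT and 0.41 to 0.60 in HMGB2-KO. With the values as deposited 9 of the 11 were higher, with a median of 0.08, and the list's medians overlapped, at 0.27, 0.52 and 0.35 in WT and 0.48, 0.37 and 0.55 in HMGB2-KO. None of the 11 passed the adjusted test or an unadjusted p of 0.05, and their part in the values of Hmox1 was not tested. Blvrb, biliverdin reductase B, ran from -0.28 to 0.33, with a log2 fold change of -0.02 (SE 0.20), or -0.19 without WT replicate 2.

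**Figure D4:**
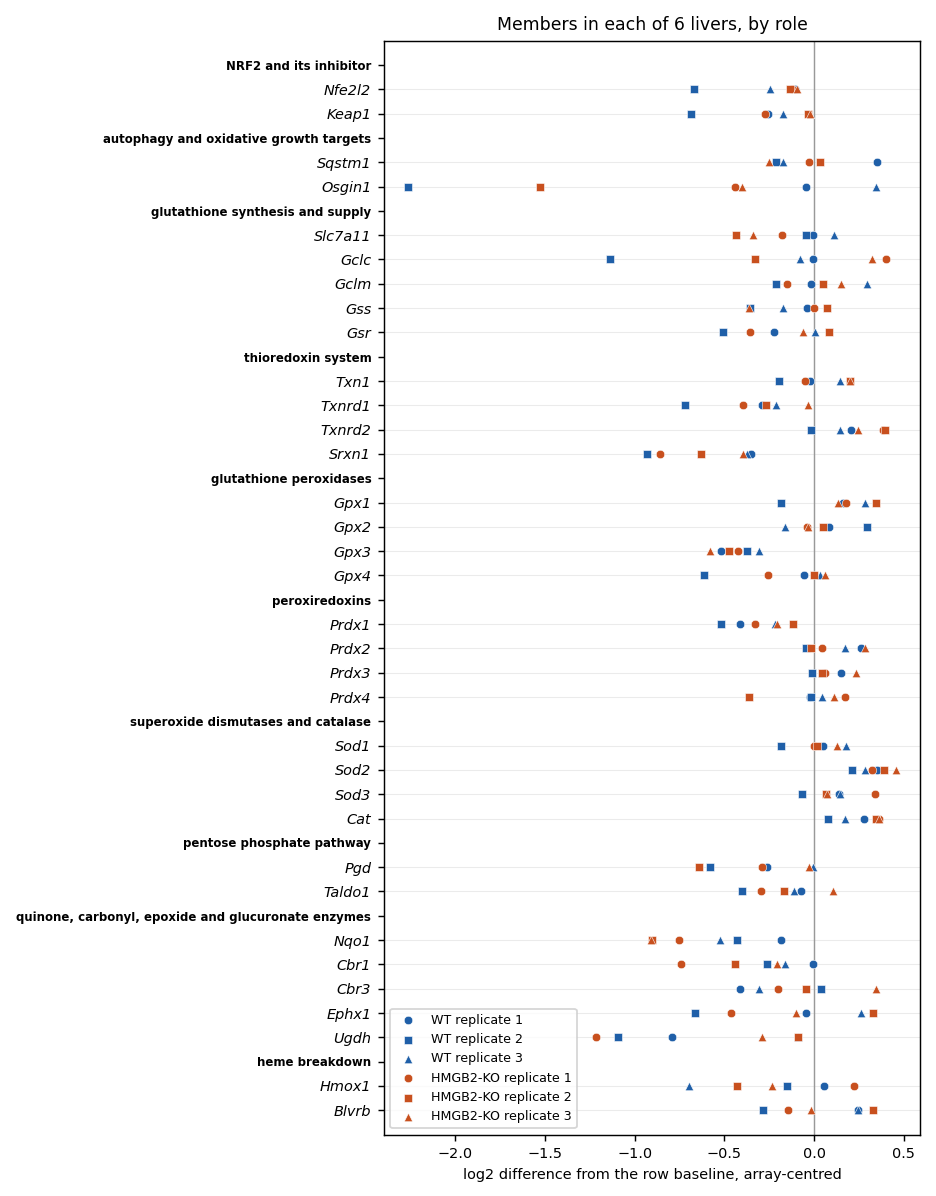
Each of the 34 genes (rows, grouped by role) in each of the 6 livers, in log2 difference from the row baseline after centring, with genotype by colour and replicate number by symbol. The widest row is Osgin1, from -2.26 in WT replicate 2 to 0.34 in WT replicate 3, and WT replicate 2 (blue squares) is the lowest liver in 22 of the 34 rows.

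Liver by liver, single livers lay far from the rest for several of these genes. Each animal was read on 1 array, so animal and array cannot be told apart. The median range over the 6 livers was 0.56 for the 34 genes and 0.52 for all genes, and 0.42 and 0.45 without WT replicate 2. WT replicate 2 was the lowest liver for 22 of the 34 (64.7%), against 22.3% of all genes. With the values as deposited it was the lowest for 7 of the 34 (20.6%), against 3.74% of all genes. HMGB2-KO replicate 1 was then the lowest for 10 (29.4%), against 22.3% of all genes. Osgin1, an oxidative stress-induced growth inhibitor and NRF2 target, had the widest range, 2.60. It was at -0.05, -2.26 and 0.34 in WT and at -0.44, -1.53 and -0.40 in HMGB2-KO. In both genotypes the liver numbered 2 is far below the others. The log2 fold change of Osgin1 was -0.14 (SE 0.66), and -0.94 without WT replicate 2, where its unadjusted p in limma was 0.0317. Gclc had a range of 1.54, Ugdh of 1.13, Ephx1 of 0.99 and Hmox1 of 0.92. At the other end were Sod2 and Prdx3, both 0.25, Gpx3 at 0.27 and Cat at 0.28.

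In the livers numbered 2, Osgin1, Gclc and Pgd had both their lowest WT and their lowest HMGB2-KO value after centring. So had Nfe2l2, Slc7a11, Prdx2, Prdx3, Sod3 and Cat, and the share of all genes with this pattern was not counted. For Ugdh and Ephx1 the lowest HMGB2-KO liver was replicate 1. The livers numbered 3, from animals 31 and 32, could be set against those numbered 1 and 2 with genotype in the model. In limma, 0 of the 34 passed the adjusted threshold in that comparison, as did 0.041% of all genes, and 1 of 34 had an unadjusted p under 0.05, as did 8.49% of all genes. That gene was Pgd, at -0.26, -0.58 and -0.0036 in WT and -0.29, -0.64 and -0.03 in HMGB2-KO, a log2 difference of 0.43 (SE 0.16, limma adjusted p = 0.558). Pgd was thus highest in the livers numbered 3 in both genotypes. For Gclm, Txnrd1, Gpx4 and Sod1 both livers numbered 3 also lay above the other 4, by 0.18 to 0.31, without an unadjusted p under 0.05. With Pgd these are 5 of the 34, or 14.7%, and 10.4% of all genes lay likewise, while 0 of the 34 lay below the other 4. As deposited, 5 of the 34 lay above the livers numbered 1 and 2 (4.67% of all genes) and 4 lay below. Without WT replicate 2, 5 lay above (12.9% of all genes) and 2 below. The shares of all genes below were not counted. Of the 34, 27 were higher in the livers numbered 3, with a median of 0.15, where 9750 of the 19505 genes were higher. WT replicate 2, low for these genes after centring, is among the livers they were compared with. Without it 23 of the 34 were higher, with a median of 0.11, and with the values as deposited 19 were, with a median of 0.06 against -0.09 for all genes.

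Many of these genes lay on the low side of their unknown baseline in every liver. Below it in all 6 livers were 10 of the 34 (29.4%), against 7.35% of all genes, and above it in all 6 were 2 (5.88%), against 6.11%. The 10 are Nfe2l2, Keap1, Txnrd1, Srxn1, Gpx3, Prdx1, Pgd, Nqo1, Cbr1 and Ugdh, and the 2 are Sod2 and Cat. As deposited, 9 of the 10 (not Cbr1) were still below it in all livers, and Txnrd2, Gpx1 and Sod3 joined Sod2 and Cat above it. Without the baseline, no level follows from this.

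Genes next to these in the pathway also gave no call, with 0 past the adjusted threshold in each of the lists below. Of 12 relatives, partners and degraders of NRF2, 6 were above 0, with a median log2 fold change of 0.01 and none at an unadjusted p under 0.05. The 2 with the smallest p were Mafg, a small MAF partner, at 0.98 (SE 0.74), and Cul3, the scaffold of the ubiquitin ligase, at 0.16 (SE 0.15). In WT replicate 2 Mafg was at -2.79 against -0.01 to 0.46 elsewhere, and without that liver it was at -0.01. Of 20 further NRF2 targets with a row, 12 were above 0, with a median of 0.08, or -0.09 without WT replicate 2. Ptgr1, a reductase of lipid-derived enals, was at -0.32 (SE 0.17) and the canalicular exporter Abcc2 at 0.19 (SE 0.16).

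Of 22 other thiol redox genes, 15 were above 0 with a median of 0.07 and none at an unadjusted p under 0.05. Gpx5, an epididymal glutathione peroxidase, was at -0.47 (SE 0.23) and Ggct, an enzyme of glutathione breakdown, at 0.45 (SE 0.23). Without WT replicate 2 these were -0.24 and 0.22. Among 16 genes of selenium supply and selenoproteins, 9 were above 0 and 2 had an unadjusted p under 0.05, both higher. Of all genes, 1.06% were higher at that threshold. Pstk, the kinase that prepares the transfer RNA of selenocysteine, was at -0.14, 0.10 and -0.13 in WT and at 0.13, 0.31 and 0.58 in HMGB2-KO. Its log2 fold change was 0.39 (SE 0.16, limma adjusted p = 0.994). With the values as deposited it was 0.28 (limma unadjusted p = 0.199), and the genotypes overlapped for Pstk. The selenoenzyme Dio1, a thyroid hormone deiodinase, was at 0.43, 0.02 and 0.60 in WT and at 0.94, 1.18 and 0.79 in HMGB2-KO, with no overlap. Dio1 thus differed by 0.62 (SE 0.19, limma unadjusted p = 0.0108), or 0.46 without WT replicate 2. The selenoenzymes Gpx1 to Gpx4, Txnrd1 and Txnrd2, described above, gave log2 fold changes of -0.09 to 0.23, of which Txnrd2 was the highest.

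Of 12 genes that make superoxide or hydrogen peroxide, 5 were above 0 and 1 had an unadjusted p under 0.05. That was Cybb, the catalytic subunit of the phagocyte NADPH oxidase, higher in HMGB2-KO, as 1.06% of all genes were at that threshold. Cybb was at 0.27, 0.25 and 0.37 in WT and at 0.80, 0.49 and 0.82 in HMGB2-KO, with no overlap after centring. With the values as deposited the genotypes overlapped for Cybb. Its log2 fold change was 0.41 (SE 0.14, limma unadjusted p = 0.0180, adjusted p = 0.994), 0.38 without WT replicate 2, and 0.29 with the values as deposited, where the unadjusted p was 0.0969. The other subunits of that oxidase in the list went both ways, with Cyba at 0.31, Ncf1 at 0.13 and Ncf4 at -0.20. Cybb is a gene of phagocytes, both macrophages and neutrophils. The macrophage markers that lay higher in HMGB2-KO are given above with Hmox1. Of the neutrophil markers, S100a8 was at -0.20, S100a9 at -0.10 and Cxcr2 at 0.10. The part of these cells in the Cybb difference was not tested. Of the markers of the other cells of the liver, 9 of 10 for hepatocytes, 6 of 10 for sinusoidal endothelium, 6 of 10 for stellate cells and 5 of 8 for lymphocytes and neutrophils were above 0, with medians of 0.09, 0.05, 0.0065 and 0.07. With the values as deposited 2 of the 10 hepatocyte markers were above 0. Among the endothelial markers the adhesion molecule Pecam1, at 0.55 (SE 0.14, limma unadjusted p = 0.00416), and Oit3, at 0.37 (SE 0.15, limma unadjusted p = 0.0413), were higher in HMGB2-KO without overlap after centring, each with an adjusted p of 0.994. With the values as deposited the genotypes overlapped for Oit3.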

How the data were processed

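RNA of 6 livers was measured on 1 array each. The authors deposited 1 table of 22206 rows of log values between -8.60 and 6.93, read as log2 differences from a baseline per row. Log base, probe summary, normalization and baseline are unstated in the sources used here. The platform annotation gives 19572 rows 1 gene symbol, 0 several, and leaves 2634 unnamed. All 19572 gene identifiers matched RefSeq GRCm38.p6. For 55 genes with several rows, none of them described here, the row with the highest mean was kept. Arrays were centred on their medians. Genotypes were compared in limma 3.58.1 under R 4.3.3 (two-sided; genotype was the single term), p-values were adjusted over 19505 genes by Benjamini-Hochberg, and 0.05 was the threshold. In a test on simulated data for HMGB2-KO against WT (19505 genes, 20 runs), 55.3% of 2-fold and 95.2% of 4-fold changes were found. Each run held 100 genes changed 2-fold and 100 changed 4-fold, with noise independent between genes and no shift between arrays. The number of arrays, 3 per group, limits the precision.

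The gene symbol Tf was read as Trf. All listed genes are named, with the value in every liver for 8 main regulators and targets and for genes with an unadjusted p under 0.05, a 1.5-fold change or no overlap. Of each nearby list, genes with an unadjusted p under 0.05, or the 2 with the smallest p, are named. Osgin1 and Cbr1 were given by liver after their values were seen. The genes, lists and tests were chosen with earlier results of these data known.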

Additional observations from a re-analysis of the deposited data

How the results depend on the processing

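No gene was called in limma over all genes under any of the 13 alternatives (0 of 19505, with 717 at an unadjusted p under 0.05 in the setting used and 601 to 945 with 1 liver left out, and 0 and 837 in a per-gene model without moderation). Values as deposited moved the median log2 fold change of the 34 genes from 0.08 to -0.037 and the number above 0 from 21 to 13. The number at an unadjusted p under 0.05, 2 here, was 4 in the per-gene model (Txnrd2 and Cat added), 1 within animals 38 to 41, and 1 to 3 with 1 liver left out. For livers numbered 3, it was 1, 0 as deposited, and 0 to 4 with 1 liver left out.

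Direction was the same under all 13 alternatives for 13 of the 34 genes, and 15 of the 34 lie within 0.1 of 0. Leaving the arrays uncentred shifts the log2 fold change of each of the 34 genes by the same amount, -0.12, so small values above 0 turn sign. As deposited, these were Gss (-0.026), Prdx3 (-0.064), Sod1 (-0.087), Sod2 (-0.011), Sod3 (-0.031), Taldo1 (-0.042), Ephx1 (-0.047) and Hmox1 (-0.0019). With quantile normalization the sign turned for Prdx4 (0.0014). Within animals 38 to 41 it turned for Osgin1 (0.17), Gclm (0.065), Prdx3 (-0.014), Hmox1 (-0.055) and Blvrb (0.11). With 1 liver left out, values on both sides of 0 were found for Blvrb (-0.19 to 0.085), Srxn1 (-0.26 to 0.040), Osgin1 (-0.94 to 0.36), Prdx2 (-0.12 to 0.042), Sqstm1 (-0.17 to 0.11), Ugdh (-0.093 to 0.47), Taldo1 (-0.037 to 0.16), Ephx1 (-0.19 to 0.28), Pgd (-0.19 to 0.12), Hmox1 (-0.099 to 0.28), Gclm (-0.12 to 0.13), Sod1 (-0.067 to 0.11), Gsr (-0.0037 to 0.25), Gpx1 (-0.0024 to 0.23), Gpx2 (-0.20 to 0.031), Gpx4 (-0.052 to 0.27), Mafg (-0.012 to 1.51), Sod3 (-0.0037 to 0.14), Prdx4 (-0.12 to 0.14) and Prdx3 (-0.0067 to 0.098). The cause of the sign changes other than those as deposited was not tested.

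With the replicate number as a block, 3 of the 34 genes had an unadjusted p under 0.05 (Gclc added) and 0 were called. Under the block the limma unadjusted p of Gclc was 0.0104 and its adjusted p 0.922. Same-numbered livers correlated in their deviations at 0.036, 0.13 and 0.29, each higher than the other correlations of its WT liver for numbers 1, 2 and 3, whereas HMGB2-KO replicate 1 correlated best with WT replicate 2, at 0.10. Same-numbered animals also have neighbouring animal numbers (38 and 39, 40 and 41, 31 and 32). Since 1 of the 3 correlations is under 0.1 and the labels name no shared litter or day, the livers were not treated as paired. With 3 livers per genotype these correlations cannot decide whether the livers were paired, and the results with the block are given above. A gene like Nqo1, 1.39-fold lower, lies below the size of the 2-fold changes put into the simulated data with 3 arrays per genotype. The 55.3% found there came with 100 2-fold and 100 4-fold changes per run, independent noise and no shift between arrays. It is therefore not the share to be found in the real arrays, where 0 of 19505 genes were called. In these Hmgb2, 1.85-fold lower, had a limma adjusted p of 0.645.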
